A study of Mus musculus with 4 samples.

Results

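Homeobox and patterning transcription factors were followed in area CA1 of the mouse hippocampus. They were taken by gene symbol: every Hox gene of the A, B, C and D clusters, and every Pax, Lhx, Msx, Emx, Otx, Gbx, Cdx, Sox, Nkx, Pitx, Meis and Pbx gene whose symbol goes on with a digit, with the family of Six2 to Six6, each by all probe sets that carry that 1 symbol alone. The rule found 86 genes of 8251 with such a probe set, in 110 probe sets among 12422 on the array, a probe set being a group of oligonucleotides for 1 transcript. No probe set carried an Emx or an Otx symbol, and 3 probe sets that name a pair of Hox genes were left out. The samples were 4 arrays of total RNA, all from young male C57BL/6J mice, an inbred strain, that had been handled and left otherwise untreated. They were the controls of an experiment with shocks, and their RNA was extracted 1, 2, 4 or 6 hours after the other mice had their last shock, with 1 sample at each time. Samples of the shocked mice were not analysed here. The labels do not tell whether a sample is 1 mouse or a pool, and each time rests on 1 array, so time, animal, dissection and array cannot be told apart in a difference between samples.

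Homeobox genes encode transcription factors that bind DNA through a homeodomain, and Sox genes encode factors that bind through an HMG box. In the embryo the Hox genes are used from the hindbrain backwards, in an order along the body that follows their order in each cluster, while the forebrain that gives rise to the hippocampus forms without them and is laid out by factors such as Emx, Otx, Lhx and Pax6. Some patterning factors stay on in the adult brain in particular cells: Lhx6 in interneurons born in the ventral forebrain, Sox10 in oligodendrocytes, Sox2 in astrocytes and stem cells, and Sox17 and Sox18 in blood vessels.

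The 1-hour sample stood apart in its Gapdh ratio and less so in that of actin. The signal at the 3' end of Gapdh over that at its 5' end was 4.52 in it, against 1.18 to 1.37 in the 2-, 4- and 6-hour samples. For actin the same ratio was 2.34 at 1 hour and 2, 1.8 and 1.76 at 2, 4 and 6 hours. Many results are therefore also given without the 1-hour sample. All lists of 4 values below run in the order of hours. Wfs1, a marker of CA1 pyramidal neurons, gave signals of 2292, 2274, 2797 and 1964. Of the 7 probe sets of pyramidal markers 5 reached the filter for tests. Those of Camk2a did not, with 17.6, 15.2, 64.5 and 5.1 by 1 and 29.7, 94.9, 55.2 and 34.9 by the other. Prox1, the homeobox marker of the neighbouring dentate gyrus, had 46.5, 56.1, 25.1 and 59.8, also below that filter. Of the 6 probe sets of dentate markers 2 reached the filter, Dsp with 175.3, 330, 184.9 and 225 and Calb1, which CA1 neurons make too, with 1755, 1545, 1604 and 1655. Tdo2 was lowest at 1 hour by both of its probe sets, with 18.7 against 130.5, 144.3 and 122.9 by 1 of them. In bulk tissue a smaller number of cells of a type and less RNA per cell cannot be told apart.

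Fewer of the patterning factors had a bright probe set than genes in general. After the arrays had been given 1 common distribution, a signal under 35.1, the 20th percentile, was taken as the floor, and tests were run on probe sets with a mean at or above the 40th percentile of mean log2 values, a signal of 105. Of the 110 probe sets, 42 (38.2%, of 37 genes) reached this filter, against 60% of all probe sets, a share that the filter itself sets. Below the floor in all 4 samples were 21 of 110 (19.1%), against 8.94% of all. Another 29 were below the floor in 1 to 3 samples, and 18 were above it in all 4 with a mean under the filter. These are counts of probe sets against a fixed level. The brightness of a probe set depends on its oligonucleotides too, so no level is compared between genes, and a probe set below the floor gives an upper bound and does not show that its gene was silent.

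**Figure D1:**
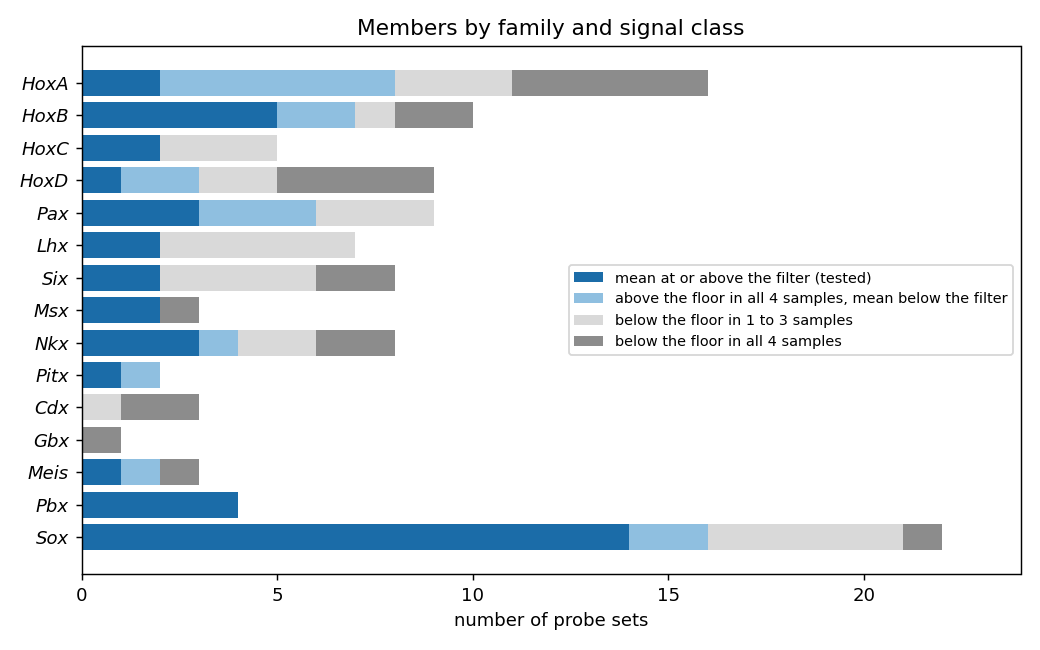
Number of member probe sets in each gene family (rows), split by signal class (colours). The bars show 14 of 22 Sox and 4 of 4 Pbx probe sets at or above the filter, and 0 of 3 Cdx and 0 of 1 Gbx.

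By family, of the Sox probe sets, 14 of 22 (63.6%) reached the filter, and of the Pbx probe sets 4 of 4. The share was 10 of 40 (25%) for Hox, 3 of 9 for Pax, 2 of 7 for Lhx, 2 of 8 for Six2 to Six6, 2 of 3 for Msx, 3 of 8 for Nkx, 1 of 2 for Pitx and 1 of 3 for Meis. Cdx1, Cdx2 and Cdx4, which pattern the trunk and gut and act upstream of Hox genes, and Gbx2, which sets the border of midbrain and hindbrain and marks the thalamus, had none. Gbx2 was below the floor in all samples, at 8.2, 14.2, 19.9 and 13.1.

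The Hox probe sets that reached the filter came from the front and middle parts of the clusters, with 0 from the back. The filter was reached by 25% of Hox probe sets, against 60% of all. By the number in the symbol, which gives the position in the cluster, 4 of 12 probe sets of paralog groups 1 to 4 reached the filter, 6 of 14 of groups 5 to 8, and 0 of 12 of groups 9 to 13, the groups used in the hindmost trunk and the limbs. Of those 12, 5 were below the floor in all samples: Hoxa13, Hoxb9, Hoxd11, Hoxd12 and Hoxd13. Hoxd13, which patterns digits, had 13.5, 12.4, 14.3 and 13 in the order of hours. In the back groups 4 probe sets were above the floor in all 4 samples, those of Hoxa9, Hoxb13, Hoxd9 and Hoxd10. Hoxa9 had 79.1, 79.3, 84.1 and 101, with little spread, and Hoxd10 had 171 at 1 hour but 36.7, 36.2 and 60.3 later. The dimmer Hox probe sets included steady ones. Hoxb5 had 81.5, 78, 72.2 and 78.3, and Hoxd9 had 69.4, 56.4, 66 and 50.6. Hoxa5, which the lung and neck need, had 80, 68.9, 57.8 and 52.1. Hoxb13 had 58.8, 63.9, 109.1 and 125.9, lower at 1 and 2 hours than at 4 and 6. Others crossed the floor: Hoxa3 had 116.9 and 59.1 in the 1- and 4-hour samples against 23.1 and 28 in the 2- and 6-hour samples, and Hoxc4 was below the floor at 1 hour alone, with 20 against 90.4, 108.3 and 71.4. Hoxa10 was above it at 1 and 2 hours, with 45.3 and 54.9. In 5 more, Hoxa11, Hoxb4, Hoxc9, 1 Hoxd1 and 1 Hoxd8 probe set, 3 of 4 samples were below it, and Hoxc6 was below it in 1. For Hoxa6, 1 probe set had 55.5, 81.2, 91.9 and 196.4 and the other was below the floor in all samples. For the antisense transcript Hoxa11os, 1 had 115, 92.5, 38.7 and 155.1 and the other was below the floor in all samples. Hoxa7 and the other Hoxd1 probe set were below it in all samples too. By cluster, 2 of 16 HoxA probe sets (chromosome 6), 5 of 10 HoxB (chromosome 11), 2 of 5 HoxC (chromosome 15) and 1 of 9 HoxD (chromosome 2) were tested.

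The 10 tested Hox probe sets fell into steady and variable ones. Hoxb3, used in the hindbrain, had 147, 179, 175 and 161 in the 1-, 2-, 4- and 6-hour samples, a range of 0.26 on the log2 scale. Hoxc8, a factor of the thoracic trunk and spinal cord, had 158, 177, 192 and 148 (range 0.39). Hoxb8, whose loss in mice alters grooming, had 466, 407, 390.4 and 407 (range 0.30). In these 3 the samples lay close together. Hoxd8 spread most: it had 70.2 in the 1-hour sample, against 192, 308 and 172, a range of 2.15 with all samples and of 0.86 without the 1-hour sample. Hoxa2, which gives the second pharyngeal arch its identity, was also lowest at 1 hour, with 86.7 against 169, 137 and 194 (range 1.14, and 0.44 without that sample). Hoxb6 alternated, with 205, 103, 223 and 78 (range 1.5 with and without the 1-hour sample). Hoxc5, a gene of the neck and forelimb level, had 97.4 and 107 at 1 and 2 hours and 204 and 184 at 4 and 6 hours (range 1.08). Hoxb1, a hindbrain factor, had 102.5, 139.6, 108 and 182, and Hoxb7 had 185, 151, 128 and 229. All of the 1-hour values stand beside the Gapdh ratio of 4.52 in that sample, whose part in them was not tested.

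Hoxa4 was read by 4 probe sets, of which 1 was tested. That one had 1022, 1259, 1383 and 557 in the order of hours (range 1.33), with the 6-hour sample lowest. Another had 126, 57.2, 70.2 and 59.2, highest at 1 hour, and the third had 42, 55.7, 83.3 and 65.8, highest at 4 hours as the tested one was. The last was below the floor in all samples, with 2, 34.8, 8.8 and 2.9. The tested one carries the letter r in its identifier, a mark for probe sets chosen with relaxed rules, and the tested Hoxb8 probe set carries it as well, while the other Hoxb8 probe set was below the floor throughout, at 26.4, 11.1, 10.6 and 23.3. The other Hoxd8 probe set had 65.9, 25.7, 18 and 31.3, highest where the tested one was lowest.

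The forebrain list held 16 genes, of which 10 had 12 probe sets here: Gbx2, Lhx1, Lhx5, Lhx6, Lhx8, Lhx9, Meis2, Pax6, Six3 and Six6. The filter was reached by 4 of 12 (33.3%), those of Lhx1, Lhx6, Meis2 and Pax6, and 3 were below the floor in all samples, those of Gbx2 and Six6 and 1 of 2 of Six3. Lhx6, which directs interneurons from the ventral forebrain into cortex and hippocampus, had 398.5, 445, 409 and 441.5 in the order of hours, an SD of 0.05 on the log2 scale (n = 4, as for each SD over samples). Pax6, which specifies dorsal forebrain progenitors and persists in a few adult neurons, had 149, 157, 153 and 134 (SD 0.09). Meis2, a cofactor that the striatum keeps into adult life, had 162.5, 141.5, 132 and 148 (SD 0.13). These 3 differed little between samples. Lhx1, used in Cajal-Retzius and Purkinje cells, had 157 and 158 in the 1- and 4-hour samples against 96.6 and 90.4 in the 2- and 6-hour samples (SD 0.46). Beside Lhx6, the 8 tested probe sets of the interneuron markers, of 9 in all, summed to 43435, 36248, 40027 and 37610 in the order of hours. The largest parts were Cck, with 17351, 15308, 15019 and 13808, and Sst, with 11953, 8664, 11526 and 9954.

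Lhx8 and Lhx9 were near or below the floor. Lhx8, which makes cholinergic neurons of the basal forebrain, had 64.6 at 1 hour and 8.1, 7.9 and 14.4 in the others. Lhx9, a factor of early pallium and thalamus, had 10.1, 64.6, 17.1 and 65.2 by 1 probe set and 11.6, 8, 13.5 and 63.2 by the other, both highest at 6 hours. Lhx5, of the hippocampal margin in the embryo, had 16, 48.3, 27.4 and 30.6, and Six6, of eye and hypothalamus, 18.4, 16.7, 23.9 and 23. The brighter Six3 probe set, for a gene of eye and rostral forebrain, was above the floor at 1 hour alone, with 60.4. Outside the list Lhx3, of pituitary and motor neurons, was above it at 4 hours alone, with 136.7. No fold is given for such values.

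Set side by side, the shares below the floor were close, and the tested Hox probe sets had the larger spread. Below the floor in all samples were 11 of 40 Hox (27.5%) and 3 of 12 forebrain probe sets (25%). The median SD among tested probe sets was 0.43 for Hox and 0.11 for the forebrain list, with 0.25 over all 7453 tested. Without the 1-hour sample the medians were 0.39 for Hox and 0.09 for the forebrain list, with 0.20 over all. A range of 1 log2 unit or more occurred in 5 of 10 Hox and 0 of 4 forebrain probe sets, against 17.9% of all tested. Without the 1-hour sample it was 3 of 10 and 0 of 4, against 9.06% of all. In the band of means from the 40th to the 60th percentile, which holds 8 of the 10 Hox probe sets, 4 of 8 Hox and 0 of 3 forebrain probe sets had such a range, against 36.4% of all, and the median SD was 0.43 for Hox and 0.13 for the forebrain list, with 0.37 over all. No test of this difference was made, since it rests on 10 and 4 probe sets of the same 4 samples, and the Hox median without the 6-hour sample was 0.24.

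**Figure D2:**
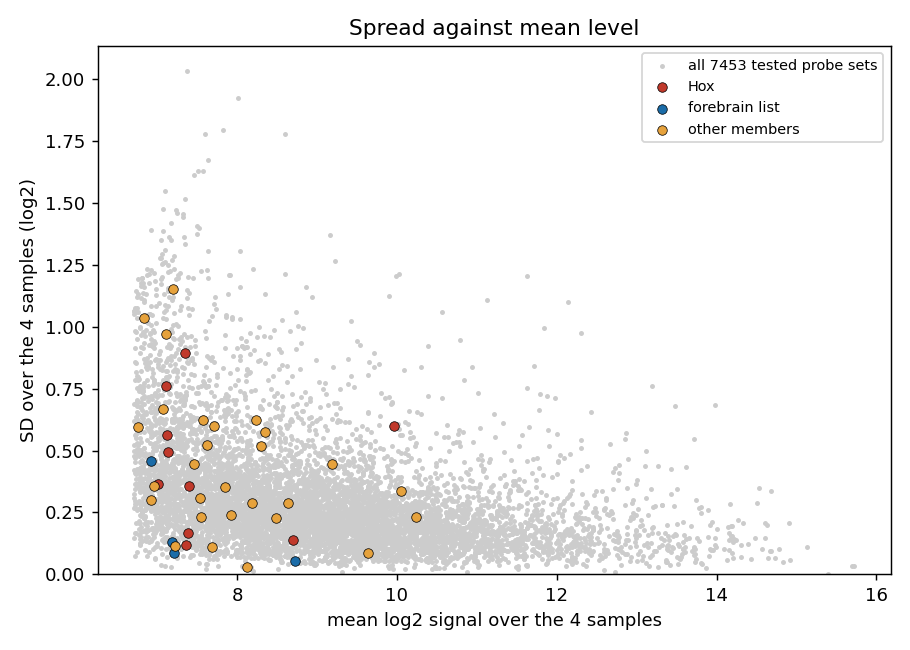
SD over the 4 samples (vertical axis, log2) against the mean log2 signal (horizontal axis) of each tested probe set. Grey points are all 7453, and coloured points are the 10 Hox, 4 forebrain and 28 other member probe sets, most of which lie at the dim end.

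Promoter sequence gave a feature that the choice of genes had not used. RefSeq promoter windows of the build GRCm38.p6, from 250 bases before to 50 after a start, were matched by gene identifier for 63 of the 86 genes, in 77 windows. The dinucleotide CG, which reads the same on both strands and is dense in promoters of developmental genes, occurred a median of 16 times per window, against 7 times over all 32851 windows. The median was 15 in the 23 Hox windows and 16 in the 12 forebrain windows. It was 16 in windows of genes with a tested probe set and 17 in those of genes with none. The TATA box letters TATAAA, on either strand, stood in 13% of member windows against 13.6% of all, and TAATTA, a core that many homeodomains bind and that is its own reverse complement, in 3.9% against 5.29%. Matches to both motifs could overlap. A match is a description of these windows and not a binding site. The 250 bases before the start are shown for Hoxd8, the tested Hox gene with the widest range, Meis2, a steady forebrain factor, and Msx1, the member with the smallest trend p, with each CG in capitals. They lie at chr2:74704365-74704614 on the plus strand, chr2:116064620-116064869 on the minus strand and chr5:37824586-37824835 on the minus strand, and hold 6, 7 and 20 CG.
Hoxd8: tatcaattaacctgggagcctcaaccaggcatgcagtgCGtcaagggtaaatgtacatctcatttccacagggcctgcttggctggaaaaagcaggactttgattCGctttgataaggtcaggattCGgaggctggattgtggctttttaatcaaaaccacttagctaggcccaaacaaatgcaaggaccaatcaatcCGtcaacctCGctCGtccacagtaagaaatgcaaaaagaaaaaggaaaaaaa
Meis2: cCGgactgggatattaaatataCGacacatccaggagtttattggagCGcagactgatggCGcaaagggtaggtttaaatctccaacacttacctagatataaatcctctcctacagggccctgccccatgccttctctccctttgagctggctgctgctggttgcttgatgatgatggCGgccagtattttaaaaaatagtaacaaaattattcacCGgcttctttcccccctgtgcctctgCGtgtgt
Msx1: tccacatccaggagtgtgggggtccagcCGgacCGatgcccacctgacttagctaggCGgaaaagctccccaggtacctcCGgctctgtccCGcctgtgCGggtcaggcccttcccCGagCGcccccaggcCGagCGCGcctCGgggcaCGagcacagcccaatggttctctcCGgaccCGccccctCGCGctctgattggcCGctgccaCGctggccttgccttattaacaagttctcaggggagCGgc

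The Meis and Pbx genes, whose proteins bind DNA together with Hox proteins, reached the filter by 5 of 7 probe sets. Pbx3 was read by 3 probe sets, all highest in the 1-hour and lowest in the 2-hour sample. The first had 517, 339, 377 and 376 in the order of hours, the second 229, 165, 178 and 182, and another 274, 109.9, 237 and 185. Their ranges were 0.67, 0.55 and 1.42 on the log2 scale. In Pbx2 the 1-hour sample was lowest, with 120, 161, 219 and 233 (range 0.94). Meis3 had 36.9, 126.5, 87.5 and 149, below the filter, and Meis1 was below the floor in all samples, at 10.3, 9.1, 3.8 and 2.7.

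The widest range of the 42 tested members was that of Pax5. This gene, a factor of B cells and of the midbrain-hindbrain border, had 48.3 in the 1-hour sample, against 248, 146 and 275 (range 2.53, and 0.87 without the 1-hour sample). The other Pax5 probe set, below the filter, had 26.5, 37.8, 17.8 and 66.6. Pax4, of pancreatic islets, had 178 and 243 in the 1- and 4-hour samples against 60.6 and 64.5 in the 2- and 6-hour samples. Its range was 2.06 with and without the 1-hour sample. Of the others, Pax2 had 34.7, 42.4, 139.9 and 146, Pax3 36.9, 51.2, 158 and 66.4, and Pax8 38.9, 49, 51.6 and 55.5, all with means under the filter, and Pax9 was above the floor only at 1 hour, with 38.5. Pax1, of the sclerotome, had 82.3, 87.7, 61.4 and 124.9.

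Msx1, which acts at the dorsal midline of the neural tube and in its derivatives, had 532, 374, 254 and 227 in the order of hours, highest in the 1-hour sample and lowest in the 6-hour sample. Its range was 1.28, and 0.70 without the 1-hour sample. Some markers of the choroid plexus, which forms at that midline, were highest in the same sample. Of 9 marker probe sets 4 were tested, and Ttr, Calml4 and Kl were each highest at 1 hour. Calml4 had 228, 62.8, 86.5 and 142, and Kl had 263, 175, 172 and 252, nearly as high at 6 hours. Igfbp2 had 465.2, 531.3, 596.8 and 358. Together the 4 reached 3203 at 1 hour, against 968, 1208 and 895. Ttr made up most of this, with 2246 against 199, 353 and 143, and 1 of 2 Aqp1 probe sets was below the floor in all samples. The part of choroid plexus in the Msx1 values was not tested. Msx3, of the dorsal spinal cord, had 186, 281, 263 and 251, lowest at 1 hour, and Msx2 was below the floor in all samples.

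Of the 3 tested Nkx genes, 2 that work in the oligodendrocyte lineage varied little. Nkx6-2, also called Gtx and present in myelinating cells, had 272, 284, 287 and 277 (SD 0.03). Nkx2-2, of oligodendrocyte progenitors, had 227, 203, 197 and 201 (SD 0.11). Nkx1-2 varied more, with 271, 187, 119 and 244 (range 1.19), lowest at 4 hours. The heart gene Nkx2-5 and Nkx2-6 were below the floor throughout. Nkx2-9 had 58.8, 63, 46.2 and 119.8, Nkx3-2 was below the floor at 4 hours alone, with 24.6 against 68.3, 94.6 and 93.6 at 1, 2 and 6 hours, and Nkx2-3 was below it in 2 samples. Among Pitx genes and Six2 to Six6, Pitx1, of pituitary and hindlimb, had 207 and 188 in the 1- and 4-hour samples against 99.8 and 85.5 in the 2- and 6-hour samples (range 1.30). Pitx3, which midbrain dopamine neurons need, had 187, 37.6, 87.9 and 48.1, under the filter. The tested Six4 probe set had 164, 90.7, 135 and 67, and another Six4 probe set with 106, 35.9, 131 and 18.2 also had its higher values at 1 and 4 hours, while the last had 69.8, 20.4, 8.3 and 7.8. Six2, of kidney progenitors, had 168, 123, 91.1 and 126. Six5 was above the floor at 2 hours alone, with 43.

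Sox genes supplied 14 of the 42 tested probe sets, and their subgroups are used in different cells. Sox2, of astrocytes and neural stem cells, had 1521 in the 1-hour sample against 1133, 1150 and 1087 (log2 difference 0.45 from the mean of the others, SD of those 3 0.05), on 1 probe set that carries the letter r. Sox10, which oligodendrocytes need, had 1247, 815, 1302 and 959.7 by the brighter probe set (range 0.70) and 126, 272, 192 and 55.3 by the other (range 2.24), in different orders: the first was lowest at 2 hours, where the other was highest. The 11 tested probe sets of the oligodendrocyte markers, of 12 in all, summed to 25516, 28055, 28688 and 34387 in the order of hours. Most of this came from 1 Mobp probe set, with 11695, 8172, 9384 and 10648, and 1 Mbp probe set, with 7347, 7892, 9392 and 9529. The other Mobp probe sets were lowest at 1 hour, where that Mobp probe set was not. They had 1500, 4568.5, 3256 and 5525 by 1 of them, 322, 1802, 980 and 2031 by another, and 480, 1016, 881 and 1173 by the last. At 1 hour 3 of the 11 lay above and 8 below the mean of the other samples. At 6 hours 10 lay above and 1 below. Of all 7453 tested probe sets, 4079 lay above at 1 hour and 3728 at 6 hours. The part of oligodendrocytes in the Sox10 values was not tested. Sox4 and Sox11, which drive the differentiation of young neurons, had ranges under 1 log2 unit, with 837, 750, 762 and 827 for 1 Sox4 probe set (SD 0.09), 261, 202, 178 and 303 for the other, and 289, 432.5, 382 and 351 for Sox11 (SD 0.23). Sox6, of interneurons and oligodendrocyte progenitors, had 145, 172, 146 and 138, and its relative Sox13 had 691, 490, 809.7 and 432, higher at 1 and 4 hours.

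Below the filter, Sox1, of neural progenitors, had 43.5, 75.6, 119.5 and 209.2, and Sox5 had 31.6, 50, 43.7 and 62.2. The other Sox6 probe set was under the floor in 2 samples, and the other Sox11 probe set had 49.2, 78.4, 37 and 4.6. Sox15, of muscle and germ cells, was tested and had 113.5, 126, 95.7 and 161.5.

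The Sox genes of blood vessels did not share 1 profile. Sox17, of arterial endothelium, had 348 in the 1-hour sample against 138, 178 and 231.5, 1.01 above the mean of the others (SD of those 3 0.40). Sox18 had 209, 429, 429.5 and 256 by 1 probe set and 228, 291, 375 and 294 by the other, both lowest at 1 hour and highest at 4 hours. Sox7 had 192, 194, 134 and 232. The other Sox17 probe set had 38.5, 31.1, 36.3 and 57.3, under the filter. Beside them, the 6 tested probe sets of the endothelial markers, of 10 in all, summed to 2548, 2466, 2046 and 1566 in the order of hours. At 1 hour 3 of them lay above and 3 below the mean of the other samples, and 4079 of all 7453 tested probe sets lay above. The part of endothelium in the Sox17 and Sox18 values was not tested.

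**Figure D3:**
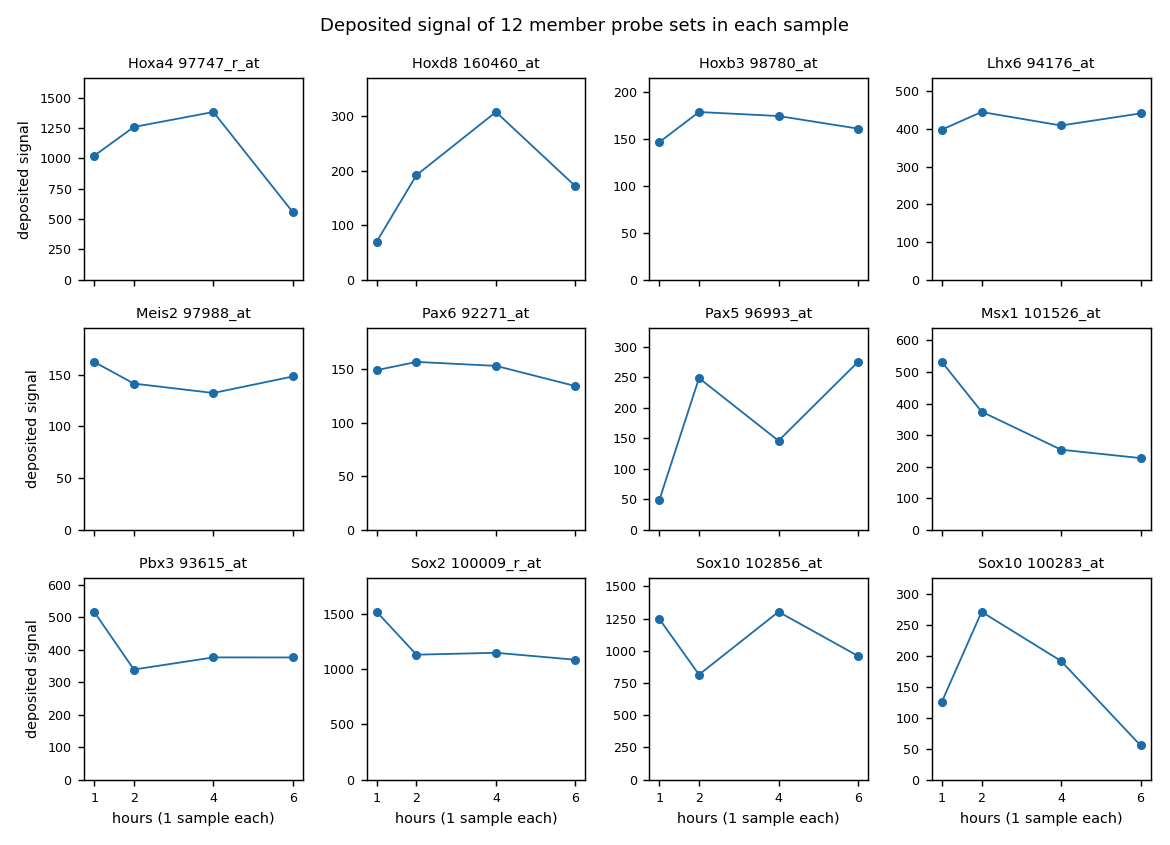
Deposited signal (vertical axes, linear, each from 0) of 12 member probe sets against hours (horizontal axes), with 1 point per sample. Lhx6, Meis2 and Pax6 stay nearly level, Hoxd8 and Pax5 are lowest at 1 hour, Msx1 is highest at 1 hour, and the 2 Sox10 probe sets have different orders.

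The 1 test that the design allows asked whether a probe set changed in a straight line from 1 to 6 hours. In the limma fit 0 of 42 tested member probe sets had an adjusted p under 0.05, as did 0% of all 7453. At an unadjusted p under 0.05 there was 1 of 42, Msx1, against 6.24% of all. Msx1 had a fitted log2 change of -1.23 from 1 to 6 hours (SE 0.34), with a limma p of 0.00831 and an adjusted p of 0.74, and over all alternatives the adjusted p lay between 0.206 and 1. The next smallest belonged to Pbx2, with a change of 0.94 (SE 0.44, limma p 0.0695), Pax5, with 1.78 (SE 0.86, limma p 0.0752), Hoxc5, with 1.10 (SE 0.55, limma p 0.0851), and Hoxa4, with -0.87 (SE 0.45, limma p 0.0934). The next after these were the dimmer Sox10 probe set, Hoxa2, Hoxd8, Sox2 and Six4, with limma p between 0.133 and 0.257. Their adjusted p lay between 0.74 and 0.819. Without the 1-hour sample the fitted change was -0.70 for Msx1, 0.57 for Pbx2, 0.17 for Pax5, 0.85 for Hoxc5 and -1.19 for Hoxa4. It was then -2.24 for the dimmer Sox10 probe set, 0.22 for Hoxa2, -0.13 for Hoxd8, -0.05 for Sox2 and -0.35 for Six4. With all 4 samples again: fitted changes were positive for 18 and negative for 24 member probe sets, with a median of -0.09, against -0.02 over all tested. For Hox they were positive in 6 of 10 (median 0.18) and for the forebrain list in 1 of 4 (median -0.11).

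A wide spread was more frequent among member probe sets than among all. The difference was small in the dimmer band and larger among brighter probe sets, which were not matched for brightness. A range of 1 log2 unit or more was found in 16 of 42 (38.1%), against 17.9% of all tested. The 1-hour sample lay at one end of the range in 11 of the 16, and in 933 of the 1331 among all tested probe sets. Without that sample the number was 9 of 42 (21.4%), against 9.06% of all. Among probe sets with a mean between the 40th and the 60th percentile, 12 of 29 members (41.4%) had such a range, against 36.4% of all in that band, and without the 1-hour sample 7 of 29, against 549 of 2484. From the 60th percentile up, a signal of 282, it was 4 of 13 (30.8%) against 8.61%, and without the 1-hour sample 2 of 13, against 126 of 4969. The 4 with all samples were Hoxa4, Msx1, Sox18 and Sox3, of which 3 rest on probe sets with a suffix letter. This upper band has no upper limit, so members and all probe sets are not matched for brightness in it. Sox3, Sox18 and Msx1 lay near its lower edge, with mean signals of 321, 331 and 347. The tested Sox3 probe set had 328, 405, 156 and 396, while the other 3 for this gene of neural progenitors stayed at or under 90.5.

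**Figure D4:**
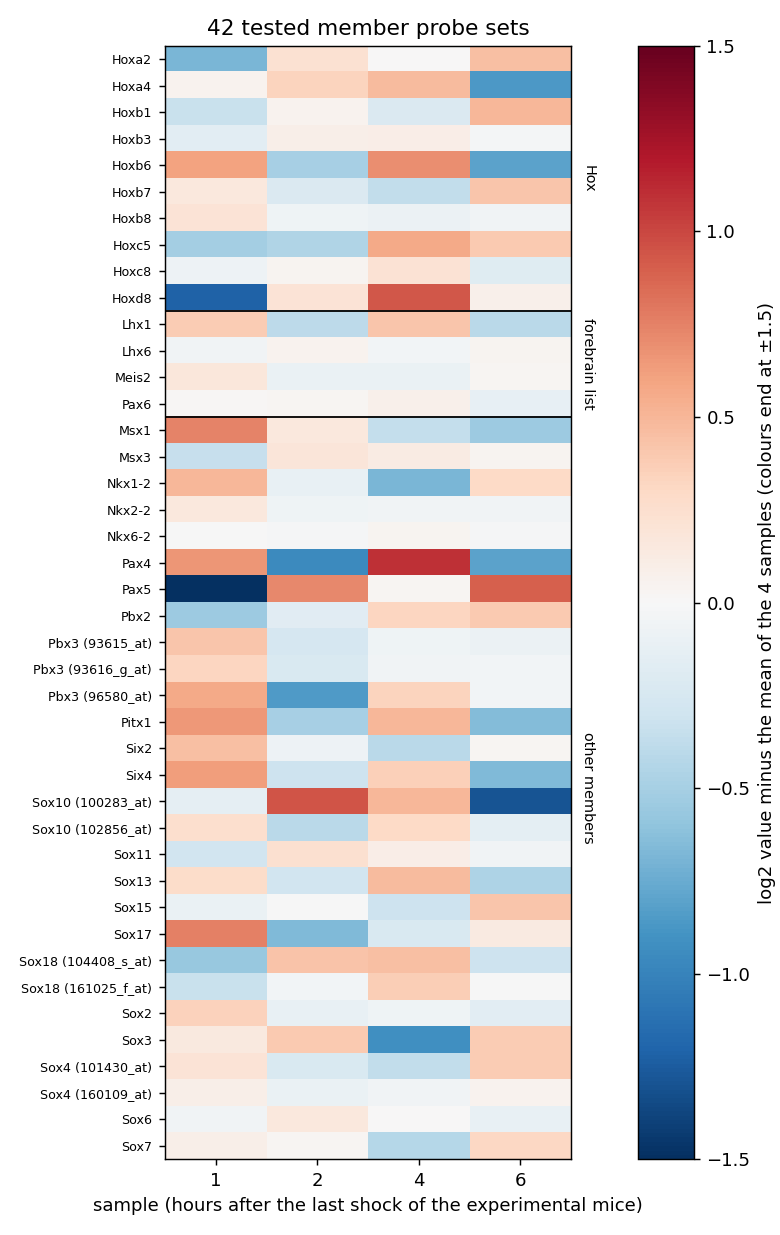
Each row is 1 of the 42 tested member probe sets and each column 1 sample, with colour for the log2 value minus the mean of the 4 samples. The largest deviations are the low 1-hour values of Pax5 and Hoxd8 and the low 6-hour value of 1 Sox10 probe set, while rows such as Lhx6, Pax6 and Nkx6-2 are nearly blank.

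Each sample was then set against the mean of the other 3, with no test, since each time had 1 array. In the 1-hour sample 1 of 42 members lay 2-fold or more above, Sox17, against 1.78% of all, and 2 lay as far below, Pax5 at -2.18 and Hoxd8 at -1.62 on the log2 scale, against 4.56% of all. In the 2-hour sample 1 lay above, the dimmer Sox10 probe set at 1.25 (1.27% of all), and 2 below, Pax4 at -1.28 and 1 Pbx3 probe set at -1.14 (1.72%). In the 4-hour sample Pax4 at 1.46 and Hoxd8 at 1.24 lay above (1.07%), and Sox3 at -1.23 below (1.93%). In the 6-hour sample Pax5 at 1.19 lay above (1.49%), and 4 lay below (1.61%): the dimmer Sox10 probe set at -1.73, Hoxa4 at -1.15, Hoxb6 at -1.07 and Pax4 at -1.07. The SD of the other 3 samples was 1.21 for Pax5 at 6 hours, larger than its difference, 0.90 for Pax4 at 4 hours, 0.14 for Sox3 at 4 hours and 0.21 for Hoxa4 at 6 hours. With 10 or 4 probe sets a group, Hox held 1 of these at 1 hour, 1 at 4 hours and 2 at 6 hours, and the forebrain list held 0.

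The order of the samples differed between members. On the normalized values there are 6 ways in which a pair of samples can lie above the other pair, and all 6 were counted over the 42 tested members. A probe set with no ties always falls into 1 of these orders, however small its range. The 1- and 4-hour samples lay above the 2- and 6-hour samples in 12 of 42 (28.6%), against 19.2% of all tested probe sets. These were Hoxb6, Lhx1, Nkx2-2, Nkx6-2, Pax4, Pitx1, Six4, Sox2, Sox13, a Sox10 probe set and 2 of 3 Pbx3 probe sets. For Nkx2-2 and Nkx6-2 this order holds on the normalized values alone, where their ranges were 0.22 and 0.07. The 1- and 6-hour samples lay above in 10 (23.8%, against 15.3%), the 2- and 4-hour samples in 10 (23.8%, against 13.5%), and the 2- and 6-hour samples in 6 (14.3%, against 16%). The 4- and 6-hour samples lay above in 3 (7.14%, against 16.9%), and the 1- and 2-hour samples in 1, Msx1 (2.38%, against 18.8%). These counts were made after the values had been seen and carry no test. The 7 tested probe sets of meningeal markers, of 13 in all, summed to 31052, 24395, 37146 and 19029 in the order of hours. Among them 3 probe sets of Ptgds, which other brain cells make too, gave most of the signal. At 4 hours 5 of the 7 lay above and 2 below the mean of the other samples, the 2 being Col1a1, with 410.7, 324.3, 129.5 and 322.9, and Col1a2, with 2448, 2279, 1988 and 1994. At 1 hour 7 of 7 lay above. Of all 7453 tested probe sets, 4079 lay above at 1 hour and 3786 at 4 hours. The part of meninges in the order of the members was not tested.

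Other patterning genes were read from lists outside the rule. Of 37 further forebrain genes, 30 had 34 probe sets, 20 of which (58.8%) were tested, against 60% of all probe sets. Of 20 genes of midbrain, hindbrain and spinal cord, 9 had 10 probe sets, and 2 (20%) were tested, En2 and Irx3. In the limma trend 0 probe sets of either list had an adjusted p under 0.05. At an unadjusted limma p under 0.05 there were 3 of these 20 forebrain probe sets, against 6.24% of all tested. Those 3 were Id2, an inhibitor of helix-loop-helix factors, with 4579, 3658, 3249 and 2776 in the order of hours, Tcf4, with 8852, 6266.5, 5357 and 5350.5, and Gsx1, with 209.6, 186, 208 and 40.4. The cortical factors Tbr1 (1176, 818, 982 and 1094), Fezf2 (1732, 1642, 2022 and 1691) and Neurod6 (1078, 1279, 811 and 1078) had ranges of 0.57, 0.26 and 0.65. Lmx1b, of midbrain and hindbrain, had 169.6, 54.1, 125 and 36, and Evx1 was below the floor in all samples by 1 of 2 probe sets. The median SD of the tested probe sets was 0.33 for these forebrain genes and 0.20 for the caudal ones. It was 0.11 for the forebrain list within the rule and 0.25 over all tested.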

How the data were processed

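RNA of 4 handled control samples was measured on 1-colour arrays. The deposited table holds an intensity for each of 12488 probe sets on a linear scale, and from the values themselves the authors had scaled the arrays to 1 level (mean of 500 after trimming 2% at each end). Array software and labelling: not given in the sources used here. The 66 control probe sets were left out, and the other 12422 went through quantile normalization, a floor at the 20th percentile (35.1) and log2. Probe sets with a mean log2 value at or above the 40th percentile (7453) were tested with limma 3.58.1 in R 4.3.3 (lmFit, eBayes with an intensity trend), hours as a linear term, 2 residual degrees of freedom, two-sided p adjusted by Benjamini and Hochberg over all tested. P-values measure only the spread between these samples, and the number of arrays limits the precision. On simulated data the mean fitted change was checked against the change put in. How often such a trend would pass the threshold is not given here.

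Symbols came from the array's annotation (10833 probe sets with 1 symbol, 396 with several, 1193 with none). All 110 members matched the RefSeq gene table of GRCm38.p6 by gene identifier. Members and gene lists were chosen with earlier results of these data known. The rule for names allowed every member, with values in all samples for tested members, and the members below the filter by counts and examples. Letters in an identifier (23 of 110 members) mark shared or relaxed probes. Figures used matplotlib 3.10.9 in Python 3.11.15. Alternatives covered normalization, floor, filter, time scale, variance prior and leaving out each sample. Leaving out members with a suffix letter was added after the data were seen.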

Additional observations from a re-analysis of the deposited data

Results flagged for a closer look

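A sample far from the other 3 was looked for in each of the 42 tested member probe sets, by the gap of the highest or lowest sample to its neighbour as a share of the whole range, against Dixon's critical value at 95%. It was found in 2, against 503 (6.75%) of all tested probe sets, and chance flags about 1 in 20. Nkx2-2 had a share of 0.954, with 227 at 1 hour and 203, 197 and 201 later. Hoxb8 had a share of 0.9, with 466 in the 1-hour sample against 407, 390.4 and 407. Both were high in the 1-hour sample, by 0.22 and 0.28 on the log2 scale, beside its Gapdh ratio of 4.52, whose part was not tested. The Hoxb8 values come from a probe set with the letter r.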

How the results depend on the processing

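No paired analysis was possible because each time had 1 sample and there was 1 group. The number of members with a time trend past the threshold was 0 under every alternative run, with 1 to 8 at an unadjusted p under 0.05 in the limma fits. With no filter it was 8 of 110 members at that unadjusted limma p, against 721 of all 12422 probe sets. Over all tested probe sets the number past the threshold was 0 under every alternative that kept the 4 samples. It was 0 to 5 when 1 sample was left out, the 5 without the 2-hour sample, with 1 residual degree of freedom. The fitted change reversed in 3 of the 10 members named by p: Hoxd8 (-0.13 to 2.00 when 1 sample was left out, lowest without the 1-hour sample), Hoxa4 (-1.19 to 0.38) and the dimmer Sox10 probe set (-2.24 to 0.45), both highest without the 6-hour sample. The number of members at or above the filter follows from the filter: with none it was 110 (40 Hox, 12 forebrain) and with the 60th percentile 13 (2 Hox, 1 forebrain). The number with a range of 1 log2 unit or more was 35 of 110 with no filter and 4 of 13 at the 60th percentile. It was 9 to 14 when 1 sample was left out, lowest without the 1-hour sample. The median SD stayed higher for Hox (0.24 to 0.51) than for the forebrain list (0.05 to 0.17) under all alternatives run.
Members 2-fold above the mean of the other samples numbered 0 at 1 hour on the values as deposited. With the floor at the 40th percentile they numbered 0 above at 2 hours, 1 at 4 hours and 0 at 6 hours, and below 0 at 1 hour, 1 at 2 hours and 1 at 6 hours. With no filter, over 110 members, they numbered 5 above at 1 hour, 7 at 4 hours and 7 at 6 hours. Below they numbered 8, 6 and 3 at 1, 2 and 4 hours. The same was not counted over all probe sets with no filter. With the filter at the 60th percentile the members numbered 0 above at each time, and below 0, 0 and 1 at 1, 2 and 6 hours. Leaving out 1 sample gave these ranges. Above the mean they were 1 to 6 at 1 hour (6 without the 4-hour sample), 1 to 2 at 2 hours (2 without the 4-hour sample), 3 at 4 hours and 0 to 1 at 6 hours (0 without the 1-hour sample). Below it they were 2 to 3 at 1 hour, 2 to 4 at 2 hours (4 without the 6-hour sample), 1 to 2 at 4 hours (2 without the 2-hour sample) and 2 to 6 at 6 hours (2 without the 1- or the 4-hour sample). The 1 member below at 4 hours, Sox3, was lost (0) without probe sets with a suffix letter. The causes were not tested, except that a filter or fewer samples changes what is counted.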

Other observations

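Of 18 member genes with several probe sets, 4 had more than 1 tested probe set, and in 2 of these, Pbx3 and Sox18, all tested probe sets were highest in the same sample, while in Sox4 and Sox10 they were not. In 9 genes 1 probe set reached the filter and at least 1 did not.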
